A study of Mus musculus with 4 samples.

Results

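The genes described here are Atf4 and 9 genes that belong with it to the integrated stress response: Atf3, Atf5, Ddit3, Cebpb, Trib3, Ppp1r15a, Chac1, Asns and Sesn2. They were chosen by symbol, with earlier results of these data known, and each symbol matched 1 row of the table of 37620 genes. All 10 passed the filter on low counts and were among the 16264 genes tested. RNA-seq of total RNA was carried out on mouse embryonic stem cells (mESCs) grown in serum with the cytokine LIF. The parental line carries endogenous CTCF, the zinc finger protein that shapes chromatin loops, fused to a degron and EGFP. In all 4 libraries this endogenous protein was degraded with auxin and replaced by exogenous CTCF from a vector, either wild type (WT_CTCF, n = 2) or mutated at T668 so that it cannot carry the sugar modification O-GlcNAc there (MUT_CTCF, n = 2). One hygromycin-selected clone per line was used, picked for a CTCF protein level near the endogenous one, so a difference between the lines cannot be told apart from a difference between clones. The hours of auxin for the RNA-seq itself are not given in the sources used here. The question was which of these stress genes differ in RNA level between MUT_CTCF and WT_CTCF mESCs.

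The integrated stress response joins several alarms to one switch. The kinases PERK, GCN2, PKR and HRI sense misfolded protein in the endoplasmic reticulum, uncharged tRNA, viral RNA and lack of heme, and each phosphorylates the translation factor eIF2alpha. Bulk protein synthesis then slows while the Atf4 message, whose upstream reading frames hold translation back in unstressed cells, is translated more, so that the ATF4 protein can change while its RNA does not. ATF4, a basic leucine zipper (bZIP) factor, pairs with C/EBP proteins on the C/EBP-ATF response element and induces genes of amino acid supply, redox balance and, under lasting stress, cell death.

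Libraries held 40524694 to 40977464 counts, and scaling factors lay between 0.994 and 1.01, so counts as deposited can be read nearly side by side. Replicates of a line differed by more than sampling noise, with a chi-square per degree of freedom of 3.65 in WT_CTCF and 4.33 in MUT_CTCF, and no library was counted as a copy of another. The exogenous and endogenous transcripts of Ctcf were not separated, and its log2 fold change was 0.044 (adjusted p = 0.499). Adjusted p-values throughout are those of edgeR's quasi-likelihood method after Benjamini-Hochberg adjustment over all tested genes, and SE stands for the standard error on the log2 scale. P-values measure the spread between these libraries of 1 clone each. With 2 libraries a line, the smallest two-sided p of an exact permutation test would be 0.333, and significance therefore rests on a spread that edgeR learns from many genes together. In bulk RNA, more cells that express a gene and more RNA per cell cannot be told apart.

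Promoters are shown first because 4 of the 10 genes hold the core of the C/EBP-ATF response element close to their start. The search used RefSeq windows of build GRCm38.p6, from 250 bases before to 50 after each annotated start, and all 10 genes had a window (11 windows, since Atf5 has 2). The letters searched on both strands were TGATGNAA for the response element core and TGACGTCA for the cAMP response element, which CREB and ATF family dimers bind. No stretch of bases can match both. Among all 32851 windows, 3.97% held the first motif and 1.79% the second. Counted by gene, as for the 10 genes, the shares were 4.51% and 2.03% of 27025 genes. In the lines below capitals mark the response element core as it reads on the strand of the gene, 5′ to 3′. Atf3, Chac1 and Asns are given as the 250 bases before the start, at chr1:191183334-191183583 (minus strand), chr2:119350992-119351241 (plus strand) and chr6:7693210-7693459 (minus strand). Trib3 is given as 30 bases after its start, at chr2:152344028-152344057 (minus strand).
Atf3: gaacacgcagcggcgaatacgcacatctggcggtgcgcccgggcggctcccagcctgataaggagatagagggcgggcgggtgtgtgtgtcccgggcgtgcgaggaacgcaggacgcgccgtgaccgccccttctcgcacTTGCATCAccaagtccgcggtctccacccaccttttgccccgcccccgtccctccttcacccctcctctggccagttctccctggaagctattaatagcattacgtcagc
Chac1: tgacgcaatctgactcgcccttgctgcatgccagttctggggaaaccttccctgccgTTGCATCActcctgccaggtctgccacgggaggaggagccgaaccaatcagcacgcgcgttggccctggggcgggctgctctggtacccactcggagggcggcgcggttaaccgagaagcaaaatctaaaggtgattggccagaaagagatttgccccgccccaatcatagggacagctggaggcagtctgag
Asns: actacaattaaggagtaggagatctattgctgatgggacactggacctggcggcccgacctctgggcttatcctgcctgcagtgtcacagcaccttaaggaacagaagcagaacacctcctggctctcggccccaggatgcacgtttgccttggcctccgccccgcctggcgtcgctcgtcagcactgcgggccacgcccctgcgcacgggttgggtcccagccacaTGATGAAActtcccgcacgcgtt
Trib3: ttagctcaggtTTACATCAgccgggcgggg

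In Atf3 and Chac1 the match read TGATGCAA on the opposite strand, 110 and 193 bases before the start. In Trib3 the match TGATGTAA lay 14 bases after the start, also on the opposite strand. In Asns the match TGATGAAA lay 23 bases before the start on the strand of the gene. No match was found in the windows of Atf4, Atf5, Ddit3, Cebpb, Ppp1r15a or Sesn2, which says only that these letters are not in these windows. The cAMP response element was found in 1 of the 10 genes, Ppp1r15a, at 12 bases before the start. A match is a description of the sequence, and binding was not measured here.

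Of the 10 genes, 3 rose in MUT_CTCF mESCs and none fell at an adjusted p under 0.05. The genes that rose were Chac1, which degrades glutathione, Trib3, a pseudokinase that feeds back on the pathway, and Atf3, a bZIP factor induced by it. Their RNA was 2.00-fold, 1.36-fold and 1.53-fold that of WT_CTCF mESCs. Atf4 itself and Asns, a classical ATF4 target, had fold changes of 1.00 and 1.01. Over all tested genes, 1.56% were called higher (253 of 16264) and 1.61% lower (262 genes), 3.17% in all. The median log2 fold change of the 10 genes was 0.16, against 0.0034 over all tested genes. Of the 10 values, 8 lay above 0 and 2 below, where 8267 of 16264 tested genes lay above 0. The signs of Atf4 (0.00048), Asns (0.017) and Atf5 (-0.045) changed in some settings. The lines did not overlap in 7 of the 10 genes, against 44.7% of tested genes. In 6 of the 7 MUT_CTCF was above WT_CTCF and in 1 below, against 22.3% of tested genes in each direction. At the other criterion, an unadjusted p under 0.05 and more than a 2-fold change, Chac1 was the 1 gene of the 10 called. It sat on that threshold, with a log2 fold change of 1.00 that became 0.80 when WT_CTCF replicate 2, and 0.88 when MUT_CTCF replicate 2, was left out. At this criterion 1.3% of tested genes were called, 0.947% as higher. The plot of normalized counts by library shows the 10 genes side by side.

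**Figure D1:**
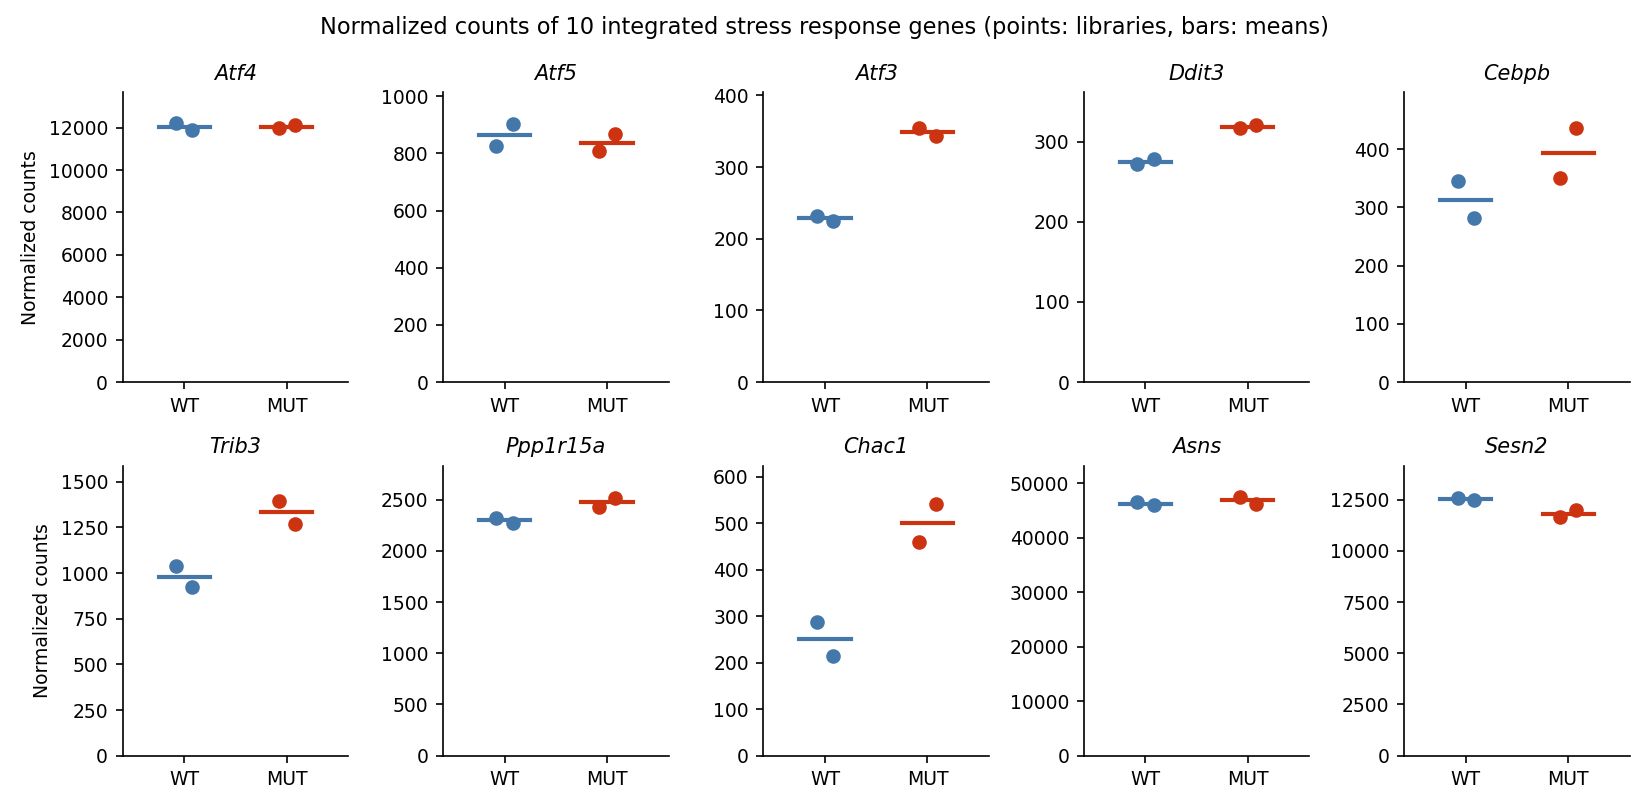
Normalized counts (counts scaled to the mean library) of the 10 genes in each of the 4 libraries, with a separate linear vertical axis from 0 for every gene. Blue points are WT_CTCF and red points MUT_CTCF libraries, and bars are means of n = 2; the groups stand apart for Chac1, Trib3 and Atf3, and the points of Atf4, Atf5 and Asns overlap.

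Among the transcription factors, Atf4 (chromosome 15 of mm9, 80085614 to 80087970, plus strand) had 12178 and 11867 counts in WT_CTCF and 12102 and 12045 in MUT_CTCF mESCs. Both MUT_CTCF values lay between the WT_CTCF values. Its normalized count averaged 12046 ± 214 for WT_CTCF and 12050 ± 74.3 for MUT_CTCF (SD, n = 2 each). The 95% interval of its log2 fold change ran from -0.063 to 0.064, so a change of the Atf4 message beyond that size lay outside the interval. The sign of this value near 0 depended on the setting. Neither ATF4 protein nor its translation was measured in these libraries.

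Atf5, a close relative of ATF4 that is also under translational control and serves the mitochondrial stress response, lies on chromosome 7 (52067627 to 52072028, minus strand). It had 826 and 899 counts in WT_CTCF and 814 and 864 in MUT_CTCF mESCs, and the groups overlapped. Its log2 fold change was -0.045 (95% interval -0.23 to 0.14, adjusted p = 0.885). This gene shares 82 exon positions with Nup62 and Il4i1 on the opposite strand, and how reads there were counted is not known.

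Atf3, which forms dimers with other bZIP factors and is induced early in many stresses, lies on chromosome 1 (192994175 to 193007219, minus strand). It had 232 and 224 counts in WT_CTCF and 358 and 342 in MUT_CTCF mESCs. The groups stood well apart, and replicates of a line differed by few counts. Its normalized count rose from 228.4 ± 5.55 to 349.3 ± 7.97 (SD, n = 2 each), a log2 fold change of 0.61 (SE 0.15, adjusted p = 0.0106). The fold change held a narrow range of 0.59 to 0.64 on the log2 scale across all alternatives. The call did not hold when any 1 library was left out, with an adjusted p of 0.0513 and 0.0750 when WT_CTCF replicate 1 or 2 was missing, and of 0.381 and 0.356 when MUT_CTCF replicate 1 or 2 was missing.

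Ddit3 encodes CHOP, the bZIP factor that ATF4 induces under lasting stress and that promotes cell death. It lies on chromosome 10 (126727830 to 126733344, plus strand) and had 271 and 277 counts in WT_CTCF and 319 in each MUT_CTCF library. Both MUT_CTCF libraries were higher, yet the log2 fold change of 0.21 (SE 0.15, adjusted p = 0.542) did not pass the test. At this depth the 95% interval reached from -0.081 to 0.51. Its exons share 68 positions with those of Mars on the opposite strand, and the strand setting of the counting was not stated.

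Cebpb, a C/EBP factor that can pair with ATF4, is a single-exon gene on chromosome 2 (167514415 to 167515918, plus strand). It had 345 and 281 counts in WT_CTCF and 354 and 435 in MUT_CTCF mESCs. The groups did not overlap, but the lower MUT_CTCF library was barely above the higher WT_CTCF library. The log2 fold change was 0.33 (SE 0.14, 95% interval 0.045 to 0.61, adjusted p = 0.240) and did not pass the test. It ran from 0.16 to 0.48 when 1 library at a time was left out. Of its 1504 exon bases, 312 are shared with Tmem189 on the opposite strand.

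Of the feedback genes, Trib3 binds AKT and ATF4 and dampens the programme that induces it. It lies on chromosome 2 (152163158 to 152169768, minus strand) and had 1034 and 923 counts in WT_CTCF and 1407 and 1262 in MUT_CTCF mESCs. Every MUT_CTCF value was above every WT_CTCF value. The normalized count rose from 980.4 ± 78.1 to 1331 ± 89.7 (SD, n = 2 each), a log2 fold change of 0.44 (SE 0.082, adjusted p = 0.000308). Without MUT_CTCF replicate 1 the log2 fold change was 0.37 with an adjusted p of 0.376, and without MUT_CTCF replicate 2 it was 0.51 with 0.240, so the call needed both MUT_CTCF libraries. It did hold without either WT_CTCF library.

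Ppp1r15a encodes GADD34, which recruits a phosphatase to eIF2alpha and so ends the response. It lies on chromosome 7 (52778286 to 52781638, minus strand) and had 2320 and 2269 counts in WT_CTCF and 2453 and 2507 in MUT_CTCF mESCs. All MUT_CTCF values were higher, by little. The log2 fold change was 0.11 (SE 0.058, adjusted p = 0.389) and did not pass the test.

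Among the effectors, Chac1 differed most between the lines. The gene encodes a gamma-glutamyl cyclotransferase that breaks down glutathione and lies on chromosome 2 (119176965 to 119180117, plus strand). It had 286 and 213 counts in WT_CTCF and 464 and 538 in MUT_CTCF mESCs, and the lowest MUT_CTCF value was far above the highest WT_CTCF value. The normalized count rose from 249.98 ± 51.6 to 500.3 ± 57.0 (SD, n = 2 each), a log2 fold change of 1.00 (SE 0.14, 95% interval 0.72 to 1.28, adjusted p = 1.50e-06). By p it ranked 28 among the 16264 tested genes. The 2 WT_CTCF libraries differed by a wide margin, and leaving out WT_CTCF replicate 2 gave a log2 fold change of 0.80 (adjusted p = 0.000289), while leaving out replicate 1 of that line gave 1.23 (adjusted p = 1.11e-09). Without MUT_CTCF replicate 1 it was 1.11 with an adjusted p of 0.231, and without MUT_CTCF replicate 2 it was 0.88 with 0.305.

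Asns, which makes asparagine lies on chromosome 6 (7625169 to 7643254, minus strand). It had 46391 and 45978 counts in WT_CTCF and 47888 and 45971 in MUT_CTCF mESCs, and the groups overlapped. Its log2 fold change was 0.017 (SE 0.023, 95% interval -0.029 to 0.063, adjusted p = 0.805). Sesn2, which restrains mTORC1 when leucine is short, lies on chromosome 4 (132047947 to 132066416, minus strand). It had 12582 and 12439 counts in WT_CTCF and 11764 and 11918 in MUT_CTCF mESCs, so it was the 1 gene of the 10 with both MUT_CTCF libraries below. The log2 fold change was -0.085 (SE 0.032, 95% interval -0.15 to -0.021, adjusted p = 0.147) and did not pass the test.

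**Figure D2:**
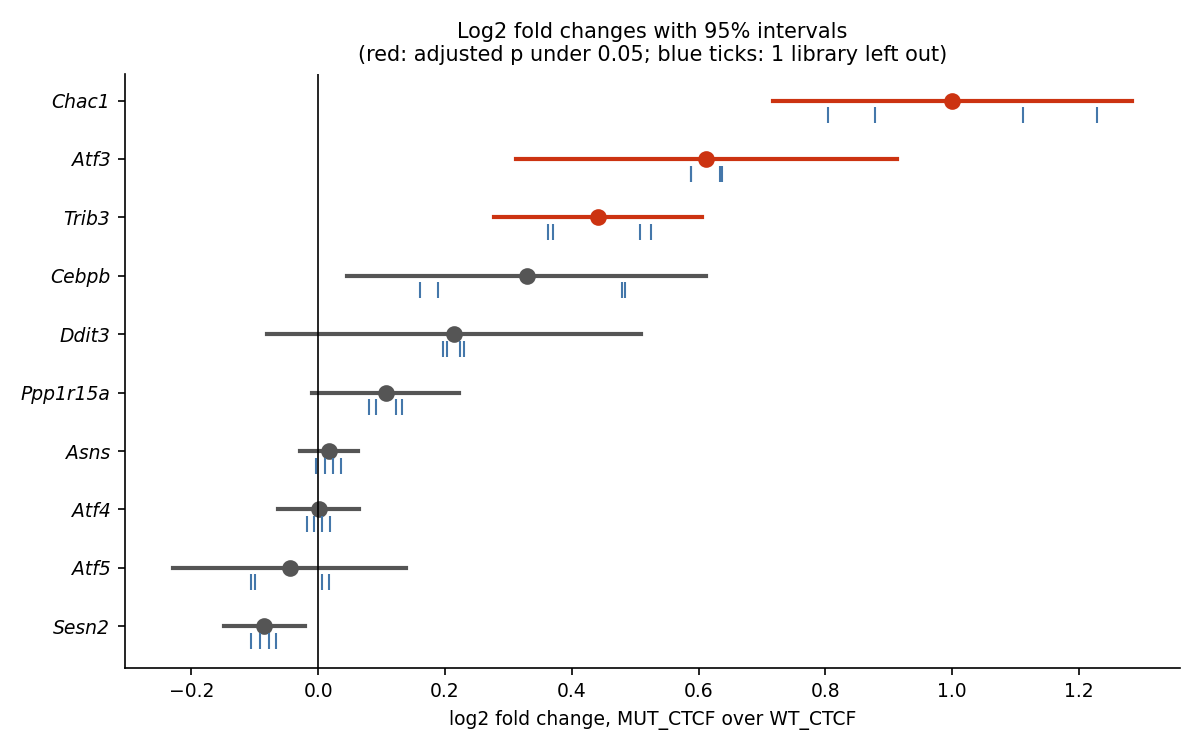
Log2 fold change of MUT_CTCF over WT_CTCF for each of the 10 genes on the horizontal axis, ordered by size. Points are estimates, and bars are 95% intervals from edgeR's quasi-likelihood fit. Red marks an adjusted p under 0.05, and blue ticks are estimates with 1 library left out. The intervals and ticks of Chac1, Atf3, Trib3 and Cebpb lie above 0, and those of Sesn2 lie below 0. The intervals are not adjusted for the number of genes tested, and Cebpb and Sesn2 were not called.

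On the scale of normalized CPM (counts scaled by library size) per kilobase of exon, which allows levels of different genes to be compared, the means over 4 libraries spanned from 3.57 for Atf3 to 417.3 for Asns. Atf4 followed Asns at 171.3, Sesn2 was at 85.9, Ppp1r15a at 19.9, Trib3 at 13.3 and Atf5 at 10.5. Cebpb stood at 5.77, Chac1 at 5.62, and Ddit3 at 4.24. Asns and Atf4 lay at percentiles 99.3 and 98.0 of all tested genes by this level, and Atf3 at 48.5. The libraries of Trib3 (10.7 to 16.1) and Atf5 (9.93 to 11.1) overlapped in level. So did Cebpb, Chac1, Ddit3 and Atf3, each with its neighbour in the order. Ddit3 nevertheless lay above Atf3 within WT_CTCF (3.88 and 3.97 against 2.87 and 2.77) and within MUT_CTCF (4.53 and 4.59 against 4.39 and 4.25). Trib3 lay above Atf5 within MUT_CTCF (16.1 and 14.6 against 9.93 and 10.7) and overlapped it within WT_CTCF. Within the lines, the mean levels of Chac1, Cebpb and Ddit3 were 3.74, 5.11 and 3.93 in WT_CTCF and 7.49, 6.42 and 4.56 in MUT_CTCF mESCs. Chac1 overlapped Ddit3 in the WT_CTCF libraries (3.20 and 4.29 against 3.88 and 3.97) and Cebpb in the MUT_CTCF libraries (6.89 and 8.10 against 5.72 and 7.12), so no order holds there. In the MUT_CTCF libraries Chac1 lay above Ddit3 (4.53 and 4.59). The 3 genes that rose lay at 3.57 to 13.3, and the 3 at the top of the order, Asns, Atf4 and Sesn2, did not pass the test in either direction. The summed level of all 10 genes was 725.5 to 737.1 in the WT_CTCF libraries and 741.1 to 746.3 in the MUT_CTCF libraries. Most of this sum came from Asns and Atf4, so it says little about the 3 genes that rose.

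**Figure D3:**
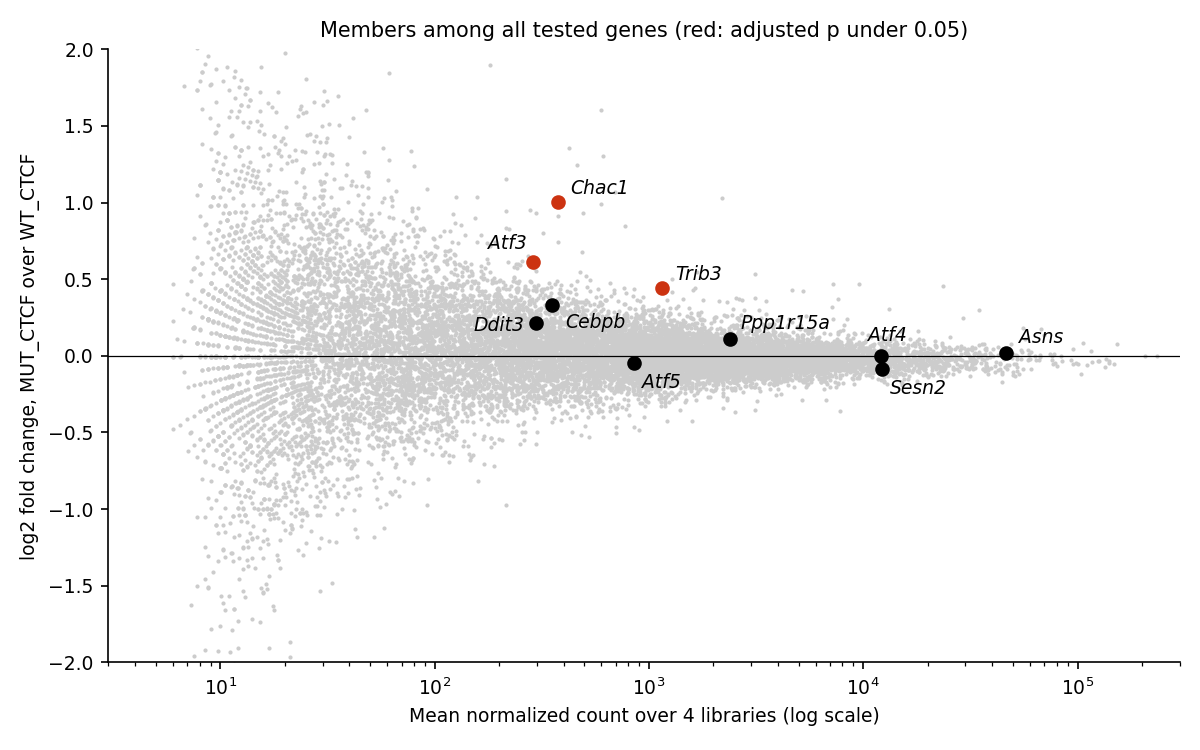
Log2 fold change of MUT_CTCF over WT_CTCF (vertical) against the mean normalized count over 4 libraries (horizontal, log scale) for all tested genes in grey, with the 10 genes drawn large and red where the adjusted p was under 0.05. The 44 tested genes beyond 2 in either direction are not drawn. Chac1, Atf3 and Trib3 lie above the line at 0, and Atf4 and Asns lie on it or close to it.

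The other genes of the pathway were read from the same fit in 7 lists. Of 113 genes listed, 112 were matched to the table and 110 were tested, and 18 of these rose and 6 fell. Beside these and the counts of each list stand the 1.56% of all tested genes called higher and the 1.61% called lower. The median log2 fold change over the 110 genes was 0.046. The lists differed in where the calls lay, as the plot of pathway lists shows, and the differences between lists were not tested. Without MUT_CTCF replicate 1 the count of genes called higher was 1 (Ddit4), without MUT_CTCF replicate 2 it was 0, and without WT_CTCF replicate 1 or 2 it was 14 or 15. The count called lower was 0 without either MUT_CTCF library and 1 without either WT_CTCF library, so it rested on all 4. Over all tested genes the calls dropped in the same way, from 253 higher to 6 without either MUT_CTCF library, while the size of a change could stay close, as for Gpt2 with a log2 fold change of 0.42 and 0.44 in place of 0.43.

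**Figure D4:**
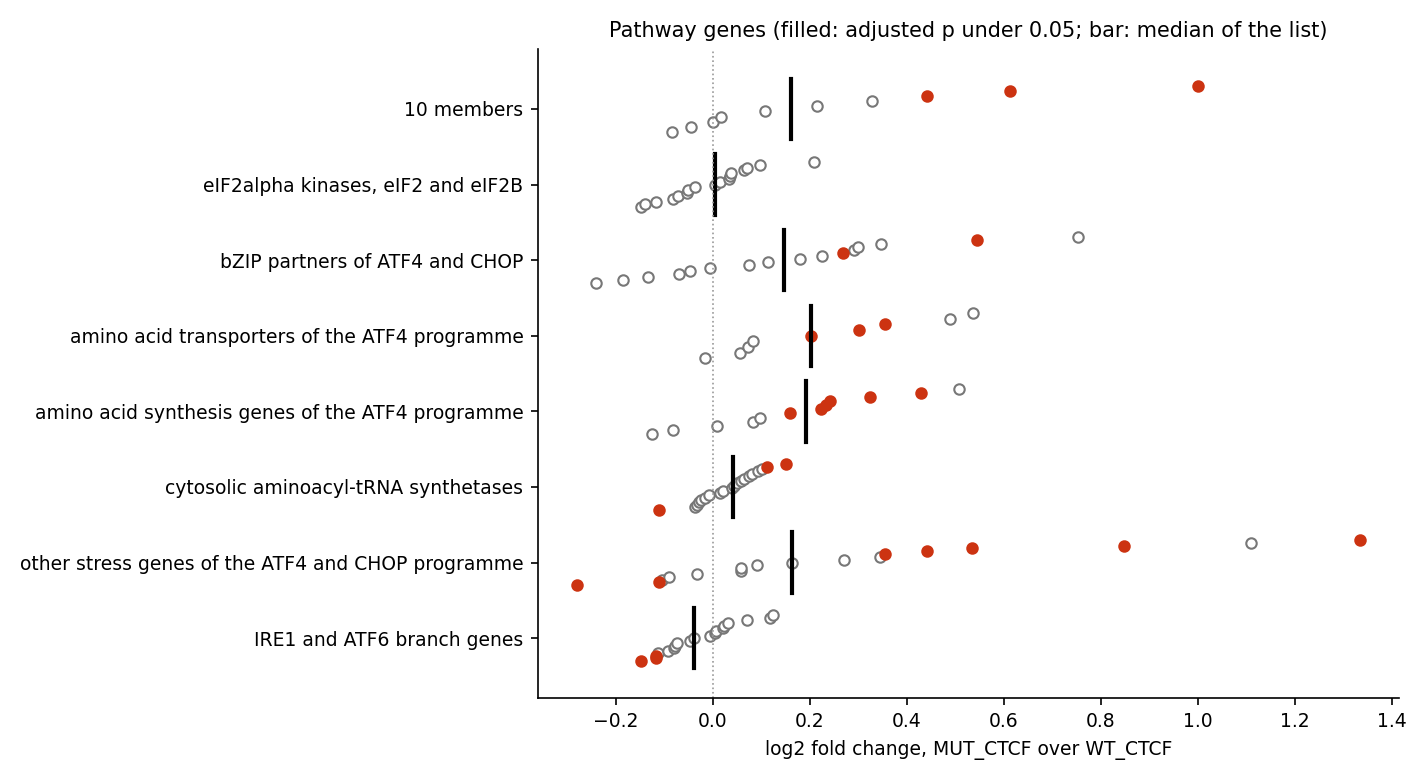
Log2 fold change of MUT_CTCF over WT_CTCF (horizontal) of every tested gene in the 10 members and in 7 pathway lists (vertical, 1 row a list). Red circles have an adjusted p under 0.05, open circles do not, and black bars are list medians; red circles stand to the right in the transporter and synthesis lists and to the left in the IRE1 and ATF6 list.

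Upstream of ATF4, none of the 17 genes for the eIF2alpha kinases, eIF2 and eIF2B with their regulators passed the test, and their median log2 fold change was 0.0039 with 9 values above 0 and 8 below. Among the bZIP factors that can pair with ATF4 or CHOP, 16 of 18 were tested, 2 rose and none fell. They were Jdp2, a repressor that binds AP-1 and cAMP response sites, with 391 and 385 counts in WT_CTCF and 550 and 586 in MUT_CTCF mESCs (log2 fold change 0.54, adjusted p = 0.00366), and the AP-1 subunit Jund (log2 fold change 0.27, adjusted p = 0.00390). Exons of Jund share positions with Gm11175. Both calls were lost without either MUT_CTCF library, and that of Jund also without WT_CTCF replicate 2. With 1 library at a time left out, the log2 fold change ran from 0.19 to 0.34 for Jund and from 0.49 to 0.60 for Jdp2. The median of this list was 0.15.

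Amino acid transporters of the ATF4 programme had 3 of 9 genes higher and none lower, with a median of 0.20 on the log2 scale, and in 8 of the 9 genes the MUT_CTCF libraries were both above those of WT_CTCF, against 22.3% of all tested genes. Slc1a5, a glutamine carrier, had 2893 and 2953 counts in WT_CTCF and 3675 and 3552 in MUT_CTCF mESCs (log2 fold change 0.30, adjusted p = 6.17e-05). Slc1a4, a carrier of alanine, serine and cysteine, rose by 0.36 on the log2 scale (adjusted p = 8.28e-05) and Slc7a1, a carrier of arginine and lysine, by 0.20 (adjusted p = 0.000167). The cystine carrier subunit Slc7a11 was low, with 33 to 53 counts, and its log2 fold change of 0.54 had an adjusted p of 0.613.

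Amino acid synthesis genes of the programme had 6 of 12 genes higher and none lower, with a median of 0.19. Gpt2, the mitochondrial alanine transaminase, had 3960 and 3966 counts in WT_CTCF and 5428 and 5283 in MUT_CTCF mESCs, higher by 0.43 on the log2 scale (SE 0.044, adjusted p = 1.35e-10). The serine synthesis enzymes Phgdh and Psat1 rose by 0.24 (adjusted p = 1.14e-05) and 0.16 (adjusted p = 0.000345) on the log2 scale. The proline synthesis gene Aldh18a1 rose by 0.22 (adjusted p = 0.000851), and Mthfd2, of mitochondrial folate metabolism, by 0.23 (adjusted p = 0.000954). The transsulfuration genes Cth and Cbs had log2 fold changes of -0.13 and -0.084 and did not pass.

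Cytosolic aminoacyl-tRNA synthetases, which charge tRNA, had 2 of 20 genes higher and 1 lower, with a median of 0.041. In 10 of the 20 every MUT_CTCF value was above every WT_CTCF value, and in 3 below, against 22.3% of all tested genes in each direction. Sars rose by 0.15 (adjusted p = 0.00524) and Gars by 0.11 (adjusted p = 0.0142) on the log2 scale, and Qars had a log2 fold change of -0.11 (adjusted p = 0.0325). These are small steps, measured on high counts, and none of the 3 calls held when any 1 library was left out. Qars also missed the threshold when libraries were scaled by size only (adjusted p = 0.0729) and with edgeR's exact test (adjusted p = 0.0616).

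Other stress genes of the ATF4 and CHOP programme had 5 of 17 tested genes higher and 2 lower, with a median of 0.16. Ddit4, an inhibitor of mTORC1, had 2523 and 2566 counts in WT_CTCF and 3520 and 3876 in MUT_CTCF mESCs (log2 fold change 0.53, adjusted p = 9.79e-11). Stc2, a secreted glycoprotein, had 540 and 556 counts against 944 and 1037 (log2 fold change 0.85, adjusted p = 4.43e-09). Ero1l, an oxidase of the endoplasmic reticulum, rose by 0.44 (adjusted p = 1.48e-05) and the vascular growth factor Vegfa by 0.35 (adjusted p = 5.01e-05) on the log2 scale. The lipoprotein receptor gene Vldlr had 29 and 59 counts against 105 and 118 (log2 fold change 1.33, adjusted p = 0.00904). On these low counts, leaving out WT_CTCF replicate 1 gave a log2 fold change of 0.91 (adjusted p = 0.229) and leaving out WT_CTCF replicate 2 gave 1.93 (adjusted p = 0.000757), and DESeq2 without independent filtering gave an adjusted p of 0.0604. All 5 are also known as genes induced by low oxygen, so they do not mark the ATF4 programme alone. The 2 that fell, named after their values were seen, were the autophagy receptor gene Sqstm1 (log2 fold change -0.11, adjusted p = 0.0170) and Bbc3, which encodes the cell death protein PUMA (log2 fold change -0.28, adjusted p = 0.0249). Fgf21, a secreted ATF4 target, had 0 counts in 3 libraries and 2 counts in the other, which is within the 3 counts that a count of 0 allows, and it was not tested.

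The neighbouring branches of the unfolded protein response, run by IRE1 and ATF6, had no gene higher and 3 of 19 lower, with a median of -0.039. The 3 were the chaperone genes Calr (log2 fold change -0.12, adjusted p = 0.000851), Hspa5 (log2 fold change -0.12, adjusted p = 0.00676) and Hsp90b1 (log2 fold change -0.15, adjusted p = 0.0255). Hspa5, which encodes BiP, had 21156 and 21788 counts in WT_CTCF and 20019 and 19701 in MUT_CTCF mESCs, without overlap. In 9 of these 19 genes every MUT_CTCF value was below every WT_CTCF value, and in 3 above, against 22.3% of all tested genes in each direction. All 3 calls were lost without either MUT_CTCF library. Calr was also lost without WT_CTCF replicate 1 (adjusted p = 0.107), Hspa5 without WT_CTCF replicate 2 (adjusted p = 0.230), and Hsp90b1 without either WT_CTCF library (adjusted p = 0.127 and 0.222) and with scaling by library size only (adjusted p = 0.0519).

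Genes could also be set out by the response element core. Of 283 tested genes with a match in a promoter window, 4.59% were called higher and 1.41% lower, against 1.6% and 1.8% of 10303 genes without one. Among the pathway genes of the lists, 5 of 14 with a match rose (35.7%), and 11 of 69 without one (15.9%). Outside the 10 genes and the lists the shares lay close together, with 1.89% of 265 genes called higher with a match and 1.51% of 10229 without. With the cAMP response element, 1.64% of 366 genes were called higher. These shares are descriptions, and no test was made of the differences between them.

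Because CTCF acts on neighbourhoods of chromatin, the tested genes with a start within 200 kb of each of the 10 genes were read as well, a choice made after the values were seen. There were 121 such genes, of which 2 were called higher and 2 lower, a share near the 3.17% of all tested genes called. Of the 12 neighbours of Chac1 none was called, and their log2 fold changes ran from -0.27 to 0.51. Of the 8 neighbours of Atf3 none was called, and the lowest, D730003I15Rik, rested on a mean of 9.52 normalized counts (log2 fold change -2.37, adjusted p = 0.164). Of the 9 neighbours of Trib3, Sox12 was called, 54.0 kb upstream (log2 fold change 0.25, adjusted p = 0.0183). The other calls lay around Ppp1r15a, itself not called, where Gys1 had a log2 fold change of 0.17, Bax of -0.15 and Ftl1 of -0.12. CTCF binding and chromatin contacts at these genes were not analysed here.

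**Figure D5:**
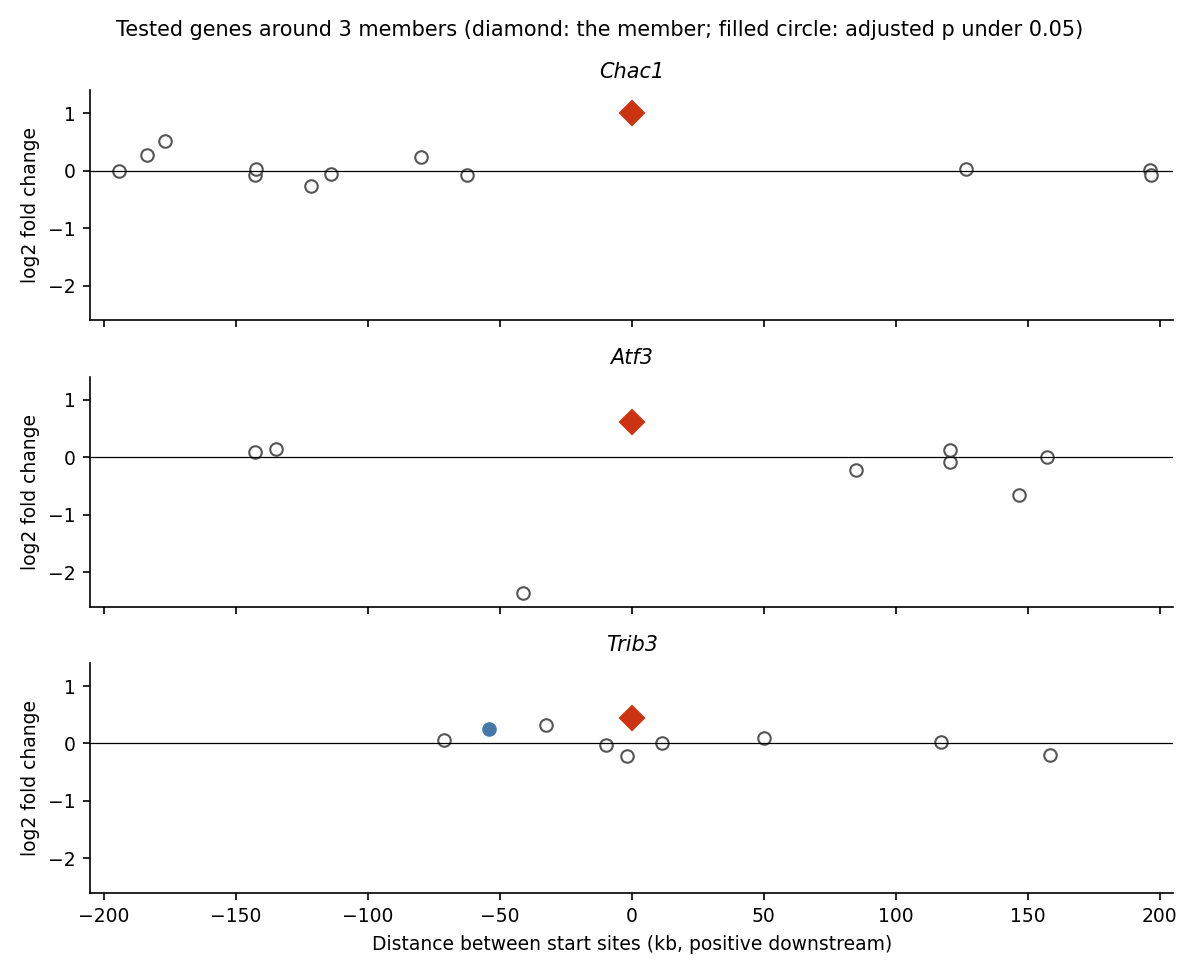
Log2 fold change of MUT_CTCF over WT_CTCF (vertical) of tested genes against the distance of their start from that of Chac1, Atf3 or Trib3 (horizontal, kb, positive downstream). Diamonds are the named gene, filled circles other genes with an adjusted p under 0.05 and open circles the rest; of the neighbours drawn, Sox12 near Trib3 is the 1 filled circle.

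The cells carried the markers of mESCs. All 10 embryonic stem cell markers were tested at levels of 98.9 to 1458 normalized CPM per kilobase, with 1 called higher (Sox2, log2 fold change 0.095, adjusted p = 0.0358) and 1 lower (Dppa5a, log2 fold change -0.099, adjusted p = 0.0157). Of 8 fibroblast markers 5 were tested and none was called, Lum was at 0 in all 4 libraries, and their summed level was 13.9 to 14.6 in WT_CTCF and 15.0 to 16.4 in MUT_CTCF libraries. Of 10 markers of primitive endoderm and trophoblast 8 were tested, with 4 log2 fold changes above 0 and 4 below. They ran from -0.97 to 0.95, with a median of -0.019. None was called higher and 2 were lower, Cdx2 (log2 fold change -0.97, adjusted p = 0.000227) and Krt8 (log2 fold change -0.30, adjusted p = 0.0319). Over all tested genes 1.61% were called lower. The summed level of this list was 27.9 to 29.8 in WT_CTCF and 24.8 to 26.6 in MUT_CTCF libraries. Of 9 mesoderm and neural markers with counts, 7 were tested and none was called, at a summed level of 16.0 to 16.1 in WT_CTCF and 17.1 to 17.2 in MUT_CTCF libraries. The summed level of the embryonic stem cell markers was 3928 to 4025 in WT_CTCF and 3868 to 3880 in MUT_CTCF libraries. The summed levels of all 4 marker lists thus stood apart between the lines. They were higher in MUT_CTCF for the fibroblast and the mesoderm and neural lists and lower for the other lists. With 2 libraries a line, 44.7% of single tested genes also stood apart. The highest markers weigh most in a sum, up to 1458 in the embryonic stem cell list and 9.52 in the fibroblast list. The part of these markers in the results on stress genes was not tested. The calls of Sox2 and Dppa5a were lost with edgeR's exact test (adjusted p = 0.104 and 0.0828) and with DESeq2 without independent filtering (adjusted p = 0.0514 and 0.0573). Krt8 was lost with DESeq2 (adjusted p = 0.0632) and with scaling by library size only (adjusted p = 0.0509). Without either MUT_CTCF library none of the 4 markers was called. Sox2 and Krt8 were also lost without either WT_CTCF library, and Dppa5a without WT_CTCF replicate 1 (log2 fold change -0.054, adjusted p = 0.586).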

How the data were processed

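Total RNA of 2 WT_CTCF and 2 MUT_CTCF mESC libraries was sequenced. The authors trimmed reads with Trim Galore 0.4.4, aligned them to mm9 with STAR, counted uniquely mapped reads per gene with HTSeq-count 0.9.1, and deposited these counts without normalization. The strand setting was not given in the sources used here. A table of the authors' own edgeR comparison (log2 fold change, average expression, p-value and false discovery rate per gene) was not used.

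Genes were named from GENCODE M1 (mm9), filtered with filterByExpr (minimum 10 counts), scaled by TMM and tested with edgeR 4.0.16 (R 4.3.3, glmQLFit and glmQLFTest on the line alone), with Benjamini-Hochberg adjustment over 16264 genes. The steps of the edgeR fit were tried on simulated counts, and the other steps were not tested in this way. The standard error is the log2 fold change divided by the root of F. The limit of 3 counts that a count of 0 allows (0.0732 to 0.0740 CPM, counts scaled by library size) covers counting error only.

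The 10 genes, the lists and the tests were chosen with earlier results of these data known. The text names all 10 genes, at most 5 called genes per pathway list by smallest p, and at most 3 called markers per list. Other genes were named after their values were seen. Atf7 and Sox1 could not be matched. Results were recomputed with DESeq2 1.42.0, with the exact test of edgeR, other scaling, other filters, a replicate block, each library left out (the lone library is then assumed to vary like the other group), and the call rule of an unadjusted p under 0.05 and more than a 2-fold change. DESeq2 without independent filtering was added after the data had been seen. Replicate numbers were not taken as pairs.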

Additional observations from a re-analysis of the deposited data

How the results depend on the processing

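With 2 libraries per line, the calls rest on few samples. The count of the 10 genes called higher, 3, became 0 with no filter on low counts, 1 with DESeq2 (4 of the 10 genes, Chac1 and Atf3 among them, got no DESeq2 adjusted p, as did 9144 tested genes) and 1 with an unadjusted p under 0.05 and a fold change above 2. Leaving out 1 library gave 0 to 2 of these calls. With no filter the adjusted p was 0.108 for Chac1, 0.167 for Trib3 and 0.198 for Atf3. With DESeq2 without independent filtering Chac1 (adjusted p = 4.07e-05) and Trib3 (0.00316) passed and Atf3 (0.0635) did not. Of the pathway genes, 18 higher and 6 lower became 3 and 0 with no filter, and 2 and 0 at the fold criterion, and DESeq2 without independent filtering called 3 lower. Leaving out 1 library gave 0 to 15 higher and 0 to 1 lower. Over all genes, 253 higher and 262 lower became 26 and 3 with no filter, 131 and 114 with DESeq2 without independent filtering, and 154 and 58 at the fold criterion. DESeq2 called 129 higher, and scaling by library size only called 152 lower. Leaving out 1 library gave 6 to 142 higher and 0 to 102 lower. The cause of these shifts was not tested. Signs reversed for Atf4 (-0.00082 with no filter, and -0.018 to 0.019 with 1 library left out), Atf5 (-0.11 to 0.018 with 1 library left out) and Asns (-0.0030 to 0.036 with 1 library left out), none of which passed the test in any setting. The median of the 10 genes lay between 0.12 and 0.18 in all settings. Replicate numbers did not pair the libraries (correlation of same-numbered deviations -0.020); with a replicate block the same count of the 10 genes, 3, was called, with 20 pathway genes higher and 8 lower, and 326 and 372 over all genes. At this depth the log2 fold changes of Ddit3 and Cebpb carried standard errors of 0.15 and 0.14. Their values of 0.21 and 0.33, larger than these standard errors, were still not called.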
